A study of Mus musculus with 4 samples.

Results

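ON cone bipolar cells with Vsx1 and Reln were described in dissociated mouse retina, where they made up 494 of 26543 sequenced cells. They were chosen cell by cell on transcripts. A member had at least 1 unique molecular identifier (UMI, a tag that marks a single captured RNA molecule) of Vsx1, Reln and Gng13 and none of Tnnt1. It also had fewer than 3 of 6 rod bipolar genes (Prkca, Car8, Sebox, Cpne9, Vstm2b and Strip2), fewer than 3 of 5 Müller glia genes (Rlbp1, Slc1a3, Aqp4, Sox9 and Dkk3) and Rp1 under 15 per 10000 UMIs. The levels of these genes in the members are therefore a consequence of the choice and are not findings.

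Cone bipolar cells carry the signal of cones from the outer to the inner retina. ON types respond to light increments because they sense glutamate with the metabotropic receptor Grm6, which acts through the G protein Gnao1 with Gnb3 and Gng13 to close the cation channel Trpm1 in darkness. The scaffold partners Gpr179, Nyx, Rgs11 and Rgs7 hold and time this cascade. Vsx1 is a homeobox factor of cone bipolar cells, and Reln encodes reelin, a secreted protein that signals through Vldlr and Lrp8 to the adaptor Dab1.

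All mice were 6 weeks old and lacked both Abca4 and Rdh8 on a C57BL/6J background, so every group, controls included, is slow to clear the retinoid aldehydes that light releases in photoreceptors. The unbleached vehicle group received DMSO and no bright light. The bleached vehicle group received DMSO, the rolipram group 2 mg/kg rolipram, a PDE4 inhibitor, and the BC11-38 group 2 mg/kg BC11-38, known as a PDE11 inhibitor. These 3 groups were taken 1 day after 30 min of white light at 10000 lux. Injection came 30 min before that light, dark adaptation lasted 24 h and pupils were dilated with 1% tropicamide, steps that the labels describe for the light protocol and do not record for the unbleached group. Each group was 1 library of 4 retinae pooled from 2 mice, so no difference between groups could be tested. The intervals given here are exact 95% intervals that cover counting error only. Those of levels and ratios treat each UMI as independent and do not cover the spread between members of a library.

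Libraries held 5697 to 7894 cells and 28983626 to 44386442 UMIs. Members numbered 86 in the unbleached vehicle, 135 in the bleached vehicle, 154 in the rolipram and 119 in the BC11-38 library. Their median depth was 8614 UMIs, 7668 UMIs, 5014 UMIs and 6448 UMIs in the same order, so the unbleached members were the deepest and the rolipram members the shallowest. Xist, which marks cells of female mice, had a UMI in 43 of 86, 1 of 135, 92 of 154 and 65 of 119 members. The bleached vehicle members were thus nearly all without Xist, and sex composition moves with every comparison below. The libraries shared 92 cell barcodes, 2 members carried a barcode that another library also held, and no barcode was a member in more than 1 library.

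Members were 1.51% of all cells in the unbleached vehicle library (interval 1.21 to 1.86), 1.98% in bleached vehicle (1.66 to 2.34), 1.95% in rolipram (1.66 to 2.28) and 1.94% in BC11-38 (1.61 to 2.31). Against all cells that passed the bipolar gates, the shares were 11.03%, 10.8%, 10.3% and 10.5%. All 4 intervals overlapped on either denominator. With every cell thinned to 2000 UMIs and shallower cells left out, 1853, 2414, 2757 and 2013 of them, the shares of all cells were 1.25%, 2.23%, 2.37% and 2.06%, and those of bipolar cells 7.86%, 9.85%, 10.0% and 9.12%. At matched depth the unbleached share of all cells (0.922 to 1.652) did not overlap that of bleached vehicle (1.81 to 2.71) or rolipram (1.98 to 2.83), and it met that of BC11-38 at its edge (1.647 to 2.54). As a share of bipolar cells, the unbleached interval of 5.85 to 10.3 overlapped those of the other libraries.

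The members were checked against genes of the ON cascade that the rule had not used. Grm6 had a UMI in 470 of the 494 members, or 95.1%, against 4.96% of 1511 OFF cone bipolar cells gated on Grik1 and Gsg1 and 2.08% of 8347 photoreceptors with high Rp1. Median depths were 6743 UMIs in members, 4762 UMIs in OFF cells and 1378 UMIs in those photoreceptors. At least 1 of Grm6, Trpm1 and Isl1 was seen in all 494 members. Trpm1 was seen in 96.8% of them and in 46.7% of OFF cells. Isl1, a LIM homeobox factor of ON bipolar cells, was seen in 90.9% of members, and Gpr179, the orphan receptor that anchors the cascade's regulators, in 89.1%. Grik1 or Gsg1 was seen in 17 members. The label of ON cone bipolar cells therefore matched these markers.

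Rgs11 and Rgs7 are the paired GTPase activators of the Grm6 cascade, and the members held mainly the first. Rgs11 had a UMI in 71.7% of members and in 62.1% of 1884 rod bipolar cells. Rgs7 had one in 8.1% of members, 28.0% of 779 ON cone bipolar cells gated on Cck and Tnnt1, and 74.0% of rod bipolar cells. Members also differed from the other gates in transcription factors. Bhlhe23, a basic helix-loop-helix factor of rod bipolar development, was seen in 3.85% of members against 77.9% of rod bipolar and 58.5% of Cck and Tnnt1 cells. Lhx3 was seen in 2.23% of members against 45.6% of Cck and Tnnt1 cells, and Lhx4 in 3.44% against 92.3% of OFF cells. Prdm8, a zinc finger factor, was seen in 75.7% of members, 85.9% of rod bipolar cells and 18.1% of Cck and Tnnt1 cells. These are shares of cells chosen on transcripts and carry no test.

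**Figure D1:**
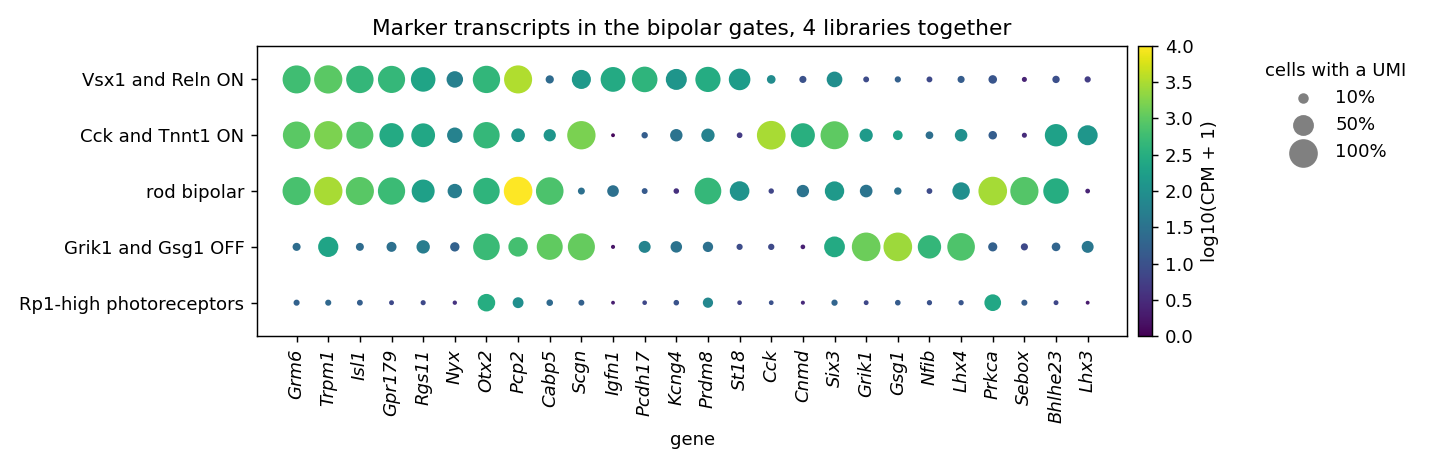
Marker transcripts in the members and in 4 comparison gates, summed over the 4 libraries; each column is a gene, the dot area gives the share of cells with a UMI and the colour log10 of CPM plus 1. Members share Grm6, Trpm1, Isl1 and Gpr179 with the other ON gates, carry Igfn1 and Pcdh17, and have little Cck, Grik1, Gsg1 or Bhlhe23.

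Several known cone bipolar types can satisfy the rule, and the members were not uniform. Igfn1, an immunoglobulin and fibronectin domain gene, had a UMI in 361 members and the protocadherin Pcdh17 in 387. Both were seen in 304 members, either in 444 and neither in 50. Neither was seen in 3 of 86 unbleached vehicle and 12 of 135 bleached vehicle members. In the drug libraries neither was seen in 17 of 154 rolipram and 18 of 119 BC11-38 members. These counts were not matched for depth. Of those 50 members, 22 had a UMI of Cck, the neuropeptide cholecystokinin. Kcng4, a silent potassium channel subunit of one known cone bipolar type, was seen in 251 members. In the same library order, Kcng4 was seen in 58.1%, 63.0%, 39.0% and 47.1% of members. With members thinned to equal depth and shallower ones left out, its shares were 15.3%, 21.6%, 14.2% and 20.9%. The mix of types may therefore differ between libraries, and its part in the comparisons below was not tested.

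The Cck-positive members formed a small group that resembled the Cck and Tnnt1 gate. There were 30 of them, 4 in unbleached vehicle, 7 in bleached vehicle, 8 in rolipram and 11 in BC11-38. Igfn1 was seen in 16.7% of them and Pcdh17 in 23.3%, against 76.7% and 81.9% of the other 464 members. Scgn, the calcium sensor secretagogin, was seen in 83.3% against 38.4%, Six3 in 83.3% against 22.6%, and Cnmd in 46.7% against 0.647%. In the Cck and Tnnt1 gate itself Scgn was seen in 97.6% of cells and Igfn1 in 0.128%. Outside the rule, 49 cells failed the rule only by a single Tnnt1 UMI: Cck was seen in 65.3% of those and Igfn1 in 20.4%.

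The edges of the rule lay mostly at Vsx1 and Tnnt1. In all, 455 cells failed only on Vsx1, 617 only on Tnnt1 and 57 only on Reln. Grm6 was seen in 67.9% of the cells without Vsx1 and Igfn1 in 4.84% of them. Members had a median of 4 UMIs of Vsx1, 5 UMIs of Reln and 33 UMIs of Gng13, and 60 members rested on a single Vsx1 UMI and 40 on a single Reln UMI. No rod bipolar gene was seen in 382 members, 1 in 98 and 2 in 14, and 2 cells with 3 such genes stood just outside. The highest Rp1 among members was 11.9 per 10000, while 4 cells failed only on Rp1.

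Transcripts that set the members apart from the other 3 bipolar gates were ranked by the smallest of the ratios within the 4 libraries. Levels are given as CPM, the UMIs of a gene per 1000000 UMIs of all members of a library, and are not scaled by transcript length. Fn1, which encodes the matrix protein fibronectin, ranked first. Its level was 393 CPM in unbleached vehicle, 478 CPM in bleached vehicle, 468 CPM in rolipram and 633 CPM in BC11-38, against 1.93 CPM, 2.80 CPM, 1.68 CPM and 2.06 CPM in the other bipolar gates. Fn1 had a UMI in 82.0% of members and in 0.642% to 1.39% of cells of the 3 other gates. BC11-38 stood highest, and the members of every library stood far above the other gates. The gene lies on chromosome 1 from 71585520 to 71653200 on the minus strand of mm10, per the GENCODE annotation.

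The members also stood above the other bipolar gates in Cdh9, Il1rapl2, Wnt4, Disp1 and Sox5. Cdh9, a cadherin used in bipolar cell lamination, stood at 233 CPM, 239 CPM, 309 CPM and 262 CPM in members and at 3.86 CPM to 8.95 CPM in the other gates. Il1rapl2, a synaptic adhesion receptor, stood at 95.6 CPM to 142 CPM against 0.172 CPM to 1.18 CPM. Wnt4, a secreted Wnt ligand, stood at 43.1 CPM to 53.1 CPM against 0.193 CPM to 1.01 CPM, and Disp1, which releases lipid-bearing hedgehog ligands, at 45.0 CPM to 79.8 CPM against 0.773 CPM to 1.35 CPM. Sox5, an SRY-box factor, stood at 158 CPM to 229 CPM against 1.55 CPM to 4.06 CPM. None of these ranges overlapped between members and the other gates in any library. The genes were chosen by their smallest ratio within a library, so this gap follows from the choice.

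Signalling genes were also among the leaders. Gnat3 encodes gustducin, the G protein alpha subunit of taste cells and a relative of the transducins. It stood at 36.2 CPM, 37.5 CPM, 32.97 CPM and 20.9 CPM in members, with 0 UMIs in the other gates of both vehicle libraries, and it was seen in 15.8% of members. Npy1r, a receptor for neuropeptide Y, stood at 37.5 CPM to 53.4 CPM against 0.172 CPM to 1.16 CPM. Trhde, a peptidase that degrades thyrotropin-releasing hormone, stood at 46.4 CPM to 80.6 CPM against 0.859 CPM to 2.90 CPM. Hs3st4, a heparan sulfate sulfotransferase, stood at 229 CPM to 275 CPM against 1.72 CPM to 6.71 CPM. Igfn1 itself stood at 220.03 CPM to 289 CPM against 10.6 CPM to 17.5 CPM, and its counts in the other gates came mainly from rod bipolar cells, where 13.0% had a UMI.

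The transcripts named here as nearly absent from members stood high in rod bipolar or OFF cells. Adrb1, the beta-1 adrenergic receptor, had a UMI in 0.607% of members against 85.6% of rod bipolar cells. Tpbg, a rod bipolar cell-surface protein, was seen in 1.82% against 84.8% and Lrrtm4, a synaptic adhesion protein, in 0.405% against 75.1%. The Cck and Tnnt1 gate was also low in Adrb1, Tpbg and Lrrtm4, seen in 2.82%, 5.01% and 0.770% of its cells. Low levels of them were thus not particular to the members. Grik1, a kainate receptor subunit, and Gsg1 were used to gate the OFF cells and stood at 1.29 CPM to 35.4 CPM in members.

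**Figure D2:**
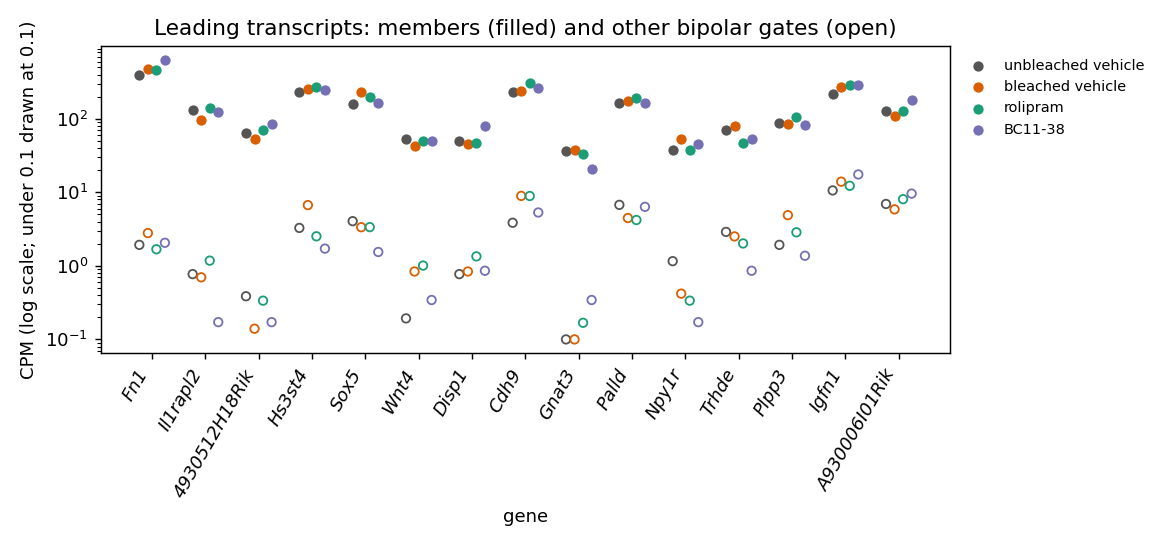
Levels of the 15 leading transcripts in members (filled) and in the other 3 bipolar gates together (open), on a log10 axis of CPM, with 1 point for each of the 4 libraries. Filled points lie above the open points for every gene and library, as for Fn1 at 393 to 633 CPM against 1.68 to 2.80 CPM. The genes were chosen by that difference.

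The members' synaptic and second-messenger genes were described from lists. Gria2, an AMPA receptor subunit, had a UMI in 96.0% of members and in 5.41% of rod bipolar cells. Gabrr2, a rho subunit of GABA receptors, was seen in 96.4% and stood at 815 CPM, 846 CPM, 777 CPM and 804 CPM. Glra1, a glycine receptor subunit, was seen in 2.63% of members against 31.4% of OFF cells. Adcy2, an adenylyl cyclase, was seen in 79.4% of members against 1.80% of rod bipolar and 5.13% of Cck and Tnnt1 cells, while Adcy1 was seen in 4.05% of members and 50% of rod bipolar cells. Members therefore held a cyclase transcript that differed from that of rod bipolar cells, as a description of gated cells.

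Phosphodiesterases, the enzymes that the drugs inhibit, degrade cyclic nucleotides. Pde4b stood at 101 CPM, 95.6 CPM, 101 CPM and 90.2 CPM in members, and Pde4a at 67.3 CPM, 38.4 CPM, 62.3 CPM and 49.7 CPM. Pde4d stood at 37.5 CPM, 52.5 CPM, 35.4 CPM and 40.5 CPM. Pde11a, the family named as the target of BC11-38, had 0 UMIs in all 494 members, which allows up to 3.88 CPM, 2.81 CPM, 3.66 CPM and 3.92 CPM in the 4 libraries at a limit of 3 counts. Pde11a was seen in at most 0.385% of cells of any other gate.

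Reelin's own pathway was split between members and other cells. Vldlr was seen in 74.1% of members and stood at 232 CPM, 213 CPM, 275 CPM and 217 CPM, and Lrp8 was seen in 23.7%. Dab1, the intracellular adaptor, was seen in 0.405% of members against 55.8% of rod bipolar cells. Of 10 reelin pathway genes, 6 could be counted in each comparison below and none passed 1.5-fold.

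The first comparison asked how members stood 1 day after bleaching. A gene was counted where the members of both libraries together held at least 100 of its UMIs, and a 1.5-fold ratio was taken as a difference, with no test. After bleaching, 104 of the 3527 counted genes stood higher by this fold, or 2.95%, and 78 stood lower, or 2.21%, which makes 5.16% in either direction. The median log2 ratio over all of them was 0.02.

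Hif1a, the oxygen-regulated transcription factor, stood at 620.0 CPM in unbleached vehicle, 1041 CPM in bleached vehicle, 716 CPM in rolipram and 564 CPM in BC11-38. The ratio of bleached to unbleached vehicle was 1.68 (1.51 to 1.87). Hif1a lies on chromosome 12 from 73901375 to 73947530 on the plus strand of mm10. Agtpbp1, which removes glutamate from tubulin tails, stood at 315 CPM, 541 CPM, 219.8 CPM and 161 CPM, a ratio of 1.72 (1.48 to 2.01). In both genes bleached vehicle was the highest library. Among the 40 and 119 members that had Y-linked UMIs but none of Xist, hereafter Y-positive members, their log2 ratios were 0.52 and 0.50, in place of 0.75 and 0.78, and that of Hif1a was 0.55 without members holding at least 2 markers of amacrine, ganglion, horizontal or cone cells. Acbd6, an acyl-CoA binding protein, stood at 144 CPM, 273 CPM, 103 CPM and 60.1 CPM, a ratio of 1.90 (1.52 to 2.38). Daam1, a formin that assembles actin, stood at 72.5 CPM, 142 CPM, 72.0 CPM and 61.5 CPM, a ratio of 1.95 (1.43 to 2.70). Mir124a-1hg, the host transcript of a neuronal microRNA, stood at 276 CPM, 477 CPM, 441 CPM and 370 CPM and was the one of these with both drug libraries above unbleached vehicle.

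Other cells of the libraries gave the same order for some of these genes. Agtpbp1 stood at 132 CPM and 278 CPM in the Cck and Tnnt1 gate of unbleached and bleached vehicle, 234 CPM and 419 CPM in rod bipolar cells and 310.02 CPM and 533 CPM in OFF cells. Acbd6 stood at 269 CPM and 319.9 CPM, 405 CPM and 645 CPM, and 275 CPM and 398 CPM in the same gates. In the same gates Hif1a stood at 953 CPM and 1228 CPM, 689 CPM and 1088 CPM, and 782 CPM and 1069 CPM. Daam1 stood at 131 CPM and 231 CPM, 132 CPM and 257 CPM, and 52.3 CPM and 54.3 CPM. The bleached library was thus higher in all 3 gates for each of these genes, by little for Daam1 in OFF cells. Outside the bipolar gates Acbd6 stood at 136 CPM and 126 CPM, Hif1a at 411 CPM and 316 CPM, and Daam1 at 83.5 CPM and 73.9 CPM. The bleached library was thus the lower there for Acbd6, Hif1a and Daam1, but not for Agtpbp1, at 248 CPM and 278 CPM. In photoreceptors with high Rp1, Hif1a stood at 644 CPM and 587 CPM and Daam1 at 61.4 CPM and 53.1 CPM. Agtpbp1 stood at 930 CPM and 1558 CPM in those photoreceptors. Whether the members differed from these cells was not tested.

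Some leading ratios came from few cells. Cck stood at 6.47 CPM and 109 CPM, but 42.2% of its bleached UMIs lay in 1 of 7 positive members, and its log2 ratio was 0.49 in Y-positive members in place of 3.96. Slc8a1, a sodium-calcium exchanger, stood at 27.2 CPM and 85.3 CPM, with 19.8% of its bleached UMIs in 1 cell. Sncg, a ganglion cell marker, stood at 154 CPM and 0.937 CPM, and all 119 of its unbleached UMIs lay in 1 member. That cell was the deepest of all members, with 38639 UMIs, and held 69.8% of the unbleached UMIs of Uchl1, a neuronal ubiquitin hydrolase. Without the deepest 10% of members, the log2 ratio of Sncg was 1.43 in place of -6.71 and that of Uchl1 -0.37 in place of -2.07.

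Among the 10 genes named as lower after bleaching, 4 encode tubulins, the subunits of microtubules. No tubulin list had been written, so this grouping was made after the values were seen. Of all 3527 counted genes, 78 stood lower, or 2.21%, and the share of all counted tubulin genes is not given here. Tuba1b stood at 519 CPM, 294 CPM, 234 CPM and 327 CPM, so that unbleached vehicle was 1.76 times bleached vehicle (1.52 to 2.05). Tubb2a stood at 641 CPM, 400.2 CPM, 402 CPM and 435 CPM, 1.60 times (1.40 to 1.83). In both, unbleached vehicle stood above all 3 bleached libraries. Tuba1a stood at 1184 CPM, 737 CPM, 728 CPM and 881 CPM, and Tuba4a at 86.7 CPM, 38.4 CPM, 46.4 CPM and 86.3 CPM. A single member held 10.7% of the unbleached Tuba1a UMIs, and without the deepest 10% of members the log2 ratio of Tuba1a was -0.53 in place of -0.68 and that of Tubb2a -0.56 in place of -0.68, both under the fold counted. In Y-positive members Tuba1a took -0.39. For Tuba4a, 19.4% of the unbleached UMIs lay in 1 member. Tubb2a was lower after bleaching in each other bipolar gate, as at 615 CPM and 421 CPM in the Cck and Tnnt1 gate. In rod bipolar cells of unbleached and bleached vehicle, Tuba1b stood at 415 CPM and 407 CPM and Tuba1a at 1037 CPM and 1194 CPM. In OFF cells Tuba4a stood at 42.3 CPM and 52.0 CPM.

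Listed genes of neuronal function gave few differences after bleaching. Of 13 genes of the ON cascade, 11 were counted and none passed 1.5-fold, with a median log2 ratio of 0.15. Grm6 stood at 491 CPM, 667 CPM, 727 CPM and 489 CPM, a ratio of 1.36 (1.20 to 1.55). Trpm1 stood at 834 CPM, 1103 CPM, 939 CPM and 804 CPM, a ratio of 1.32 (1.20 to 1.46), and Gnb3 at 2523 CPM, 3466 CPM, 2489.8 CPM and 2190.1 CPM, a ratio of 1.37 (1.30 to 1.45). Bleached vehicle stood above unbleached vehicle in these 3 genes, by less than the fold counted.

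Of 25 glutamate receptor genes, 6 were counted after bleaching and 1 was higher, Gria1, another AMPA receptor subunit. It stood at 93.2 CPM, 166 CPM, 75.7 CPM and 75.8 CPM, a ratio of 1.78 (1.35 to 2.38), with bleached vehicle the highest. Of 33 ion channel genes, 9 were counted and Kcnd3, an A-type potassium channel, was higher, at 98.4 CPM, 172 CPM, 111 CPM and 126 CPM. Of 25 ribbon synapse genes, 16 were counted. Sv2b, a synaptic vesicle glycoprotein, was higher at 177 CPM and 280.2 CPM, and Cacna1d, a calcium channel subunit, lower at 268 CPM and 165 CPM. In Y-positive members the log2 ratios of Gria1, Kcnd3 and Sv2b were 0.52, 0.52 and 0.46, in place of 0.83, 0.80 and 0.66, all under the fold counted. As a mean over cells, Cacna1d took -0.55 in place of -0.70, also under it. The 8 counted GABA and glycine receptor genes included none past 1.5-fold.

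The light-stress lists were sparse in members. Of 22 STAT3 and acute-phase genes, 3 were counted, and Serpina3n, a secreted serine protease inhibitor, was higher after bleaching. It stood at 41.4 CPM and 130 CPM, a ratio of 3.15 (2.13 to 4.78), and had a UMI in 13 of 86 and 55 of 135 members. Of 23 immediate early genes 7 were counted, and Fos was lower, at 678 CPM and 432 CPM. Without the deepest 10% of members the log2 ratio of Fos was -0.46 in place of -0.65, under the fold counted.

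**Figure D3:**
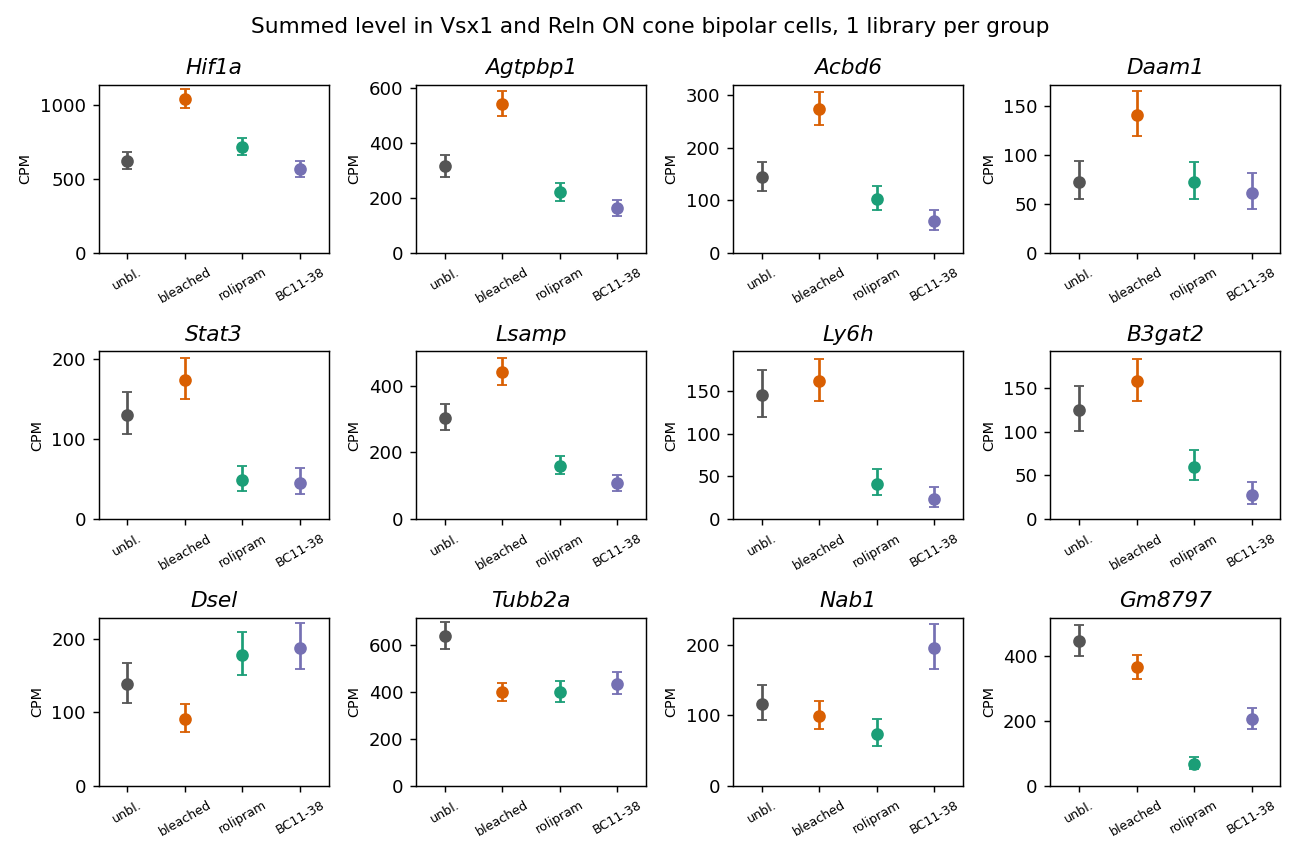
Levels of 12 named genes in members of each library, in CPM with exact 95% Poisson intervals of the summed UMIs; each point is 1 library and each panel starts at 0. Hif1a, Agtpbp1, Acbd6 and Daam1 are highest in bleached vehicle, while Stat3, Lsamp, Ly6h and B3gat2 are low in both drug libraries, as for Stat3 at 48.8 and 45.8 CPM against 174 CPM.

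The remaining comparisons set each drug library against bleached vehicle. They share that library, so their values are given side by side and no overlap between them is read. For rolipram, 118 of 3640 counted genes stood higher (3.24%) and 126 lower (3.46%), or 6.70% in either direction, with a median log2 ratio of 0.02. For BC11-38, 98 of 3515 genes stood higher (2.79%) and 164 lower (4.67%), or 7.45% in either direction, with a median of -0.03.

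STAT3 is the transcription factor of the cytokine and acute-phase response. Its gene Stat3 stood at 131 CPM in unbleached vehicle, 174 CPM in bleached vehicle, 48.8 CPM in rolipram and 45.8 CPM in BC11-38, and both drug libraries lay below both vehicle libraries. Bleached vehicle was 3.57 times rolipram (2.53 to 5.16) and 3.81 times BC11-38 (2.64 to 5.63). In Y-positive members the log2 ratio for BC11-38 was -1.37 in place of -1.92. Stat3 lies on chromosome 11 from 100885098 to 100939540 on the minus strand of mm10.

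Serpina3n, a known STAT3-responsive gene, had 2 UMIs in the 154 rolipram members and 0 in the 119 BC11-38 members, against 139 in bleached vehicle. It was thus at least 33.2-fold lower in BC11-38 at a limit of 3 counts, and bleached vehicle was 53.3 times rolipram with a wide interval (14.5 to 445). Serpina3n followed the same order outside the members, at 365 CPM, 7.42 CPM and 0 CPM in rod bipolar cells of bleached vehicle, rolipram and BC11-38, and at 157 CPM, 39.5 CPM and 0.491 CPM in cells outside all bipolar gates. In bleached vehicle the level of the members and that of OFF cells, 11.3 CPM, lay below that of the cells outside the gates. The rod bipolar level lay above it. The part of free RNA from cells outside the gates in the members' counts was not tested.

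A2m, a protease-binding protein of the acute-phase list, stood at 20.7 CPM, 73.1 CPM, 4.88 CPM and 0 CPM, with UMIs in 13, 52, 3 and 0 members. It was at least 18.6-fold lower in BC11-38 than in bleached vehicle. A2m stood lower outside the bipolar gates, at 41.7 CPM in bleached vehicle. All 3 counted genes of the STAT3 list, Stat3, Serpina3n and Junb, were at least 1.5-fold lower in each drug library, with medians of -1.82 and -1.92 on the log2 scale. Junb, an AP-1 factor that the immediate early list also holds, stood at 97.1 CPM, 141 CPM, 87.9 CPM and 49.7 CPM. As a mean over cells, its log2 ratio for rolipram was -0.51 in place of -0.67, under the fold counted. The list rests on 3 counted genes, and other gates of the libraries showed the same order: Stat3 stood at 169 CPM, 64.5 CPM and 36.4 CPM in rod bipolar cells of bleached vehicle, rolipram and BC11-38.

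Clu, which encodes the chaperone clusterin and stood among the Müller glia markers, was 197 CPM, 293 CPM, 51.3 CPM and 49.7 CPM in members. It had a UMI in 62.8%, 78.5%, 20.8% and 25.2% of them, and both drug libraries lay below both vehicle libraries. Outside the bipolar gates Clu stood at 1884 CPM, 2545 CPM, 1789 CPM and 917 CPM. The Müller glia list as a whole, 9 genes, summed to 734 CPM, 921 CPM, 563 CPM and 698 CPM in members. In each drug comparison 3 of its genes were counted, and Clu was the 1 gene past the fold. The list medians were -0.49 for rolipram and 0.12 for BC11-38, so the list did not fall as a whole in BC11-38. The part of Müller glia RNA in the level of Clu was not tested.

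Lsamp, Ly6h and B3gat2 were among the named genes that stood lower with a drug. Lsamp, a limbic adhesion protein, stood at 304 CPM, 441 CPM, 160.0 CPM and 107 CPM, so that bleached vehicle was 2.75 times rolipram (2.26 to 3.37) and 4.11 times BC11-38 (3.24 to 5.26). Ly6h, a GPI-anchored protein that acts on nicotinic receptors, stood at 145 CPM, 161 CPM, 41.5 CPM and 23.5 CPM, 3.88 times (2.68 to 5.79) and 6.85 times (4.21 to 11.8). B3gat2, a glucuronyltransferase of the HNK-1 epitope, stood at 124 CPM, 157 CPM, 59.8 CPM and 27.5 CPM, and bleached vehicle was 5.73 times BC11-38 (3.63 to 9.51). In these 3 genes both drug libraries lay below both vehicle libraries, with no overlap of intervals.

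In other gates these genes were less uniform. Lsamp stood at 148 CPM, 69.6 CPM and 46.8 CPM in the Cck and Tnnt1 gate of bleached vehicle, rolipram and BC11-38, but at 200.5 CPM, 168 CPM and 176 CPM in OFF cells. Ly6h stood at 19.0 CPM, 13.7 CPM and 5.97 CPM in the Cck and Tnnt1 gate and 147 CPM, 62.7 CPM and 57.4 CPM in OFF cells. In rod bipolar cells it stood at 11.7 CPM, 8.16 CPM and 12.6 CPM, and outside the bipolar gates at 94.4 CPM, 110 CPM and 122 CPM. B3gat2 stood at 11.8 CPM, 25.6 CPM and 14.9 CPM in the Cck and Tnnt1 gate, 10.9 CPM, 11.1 CPM and 7.79 CPM in rod bipolar and 11.3 CPM, 9.29 CPM and 8.95 CPM in OFF cells. B3gat2 was thus low in all other bipolar gates, where few UMIs were counted, and the difference between gates was not tested. It lies on chromosome 1 from 23761753 to 23849158 on the plus strand of mm10.

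Agtpbp1 and Acbd6, which stood high after bleaching, stood low with the drugs. Bleached vehicle was 3.36 times BC11-38 for Agtpbp1 (2.76 to 4.12) and 4.53 times for Acbd6 (3.31 to 6.33), and 2.66 times rolipram for Acbd6 (2.08 to 3.43). In both genes the drug libraries also lay below unbleached vehicle. Since all these ratios use the bleached vehicle library, a high value there enters both comparisons.

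Smaller named genes followed the same side. Ache, acetylcholinesterase, stood at 56.9 CPM, 88.1 CPM, 20.8 CPM and 34.0 CPM. Nf2, the tumour suppressor merlin, stood at 58.2 CPM, 99.3 CPM, 25.6 CPM and 27.5 CPM, and Nxn, a thioredoxin-like protein, at 80.2 CPM, 111 CPM, 31.7 CPM and 32.7 CPM. Onecut2, a factor listed as a horizontal cell marker, stood at 59.5 CPM, 94.7 CPM, 23.2 CPM and 22.2 CPM. Of the other 3 horizontal markers, 3, 2, 2 and 2 had no UMI in members of the 4 libraries, and their part was not tested. Without members holding at least 2 amacrine, ganglion, horizontal or cone markers, the log2 ratio of Onecut2 in rolipram was -3.52 in place of -2.00.

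**Figure D4:**
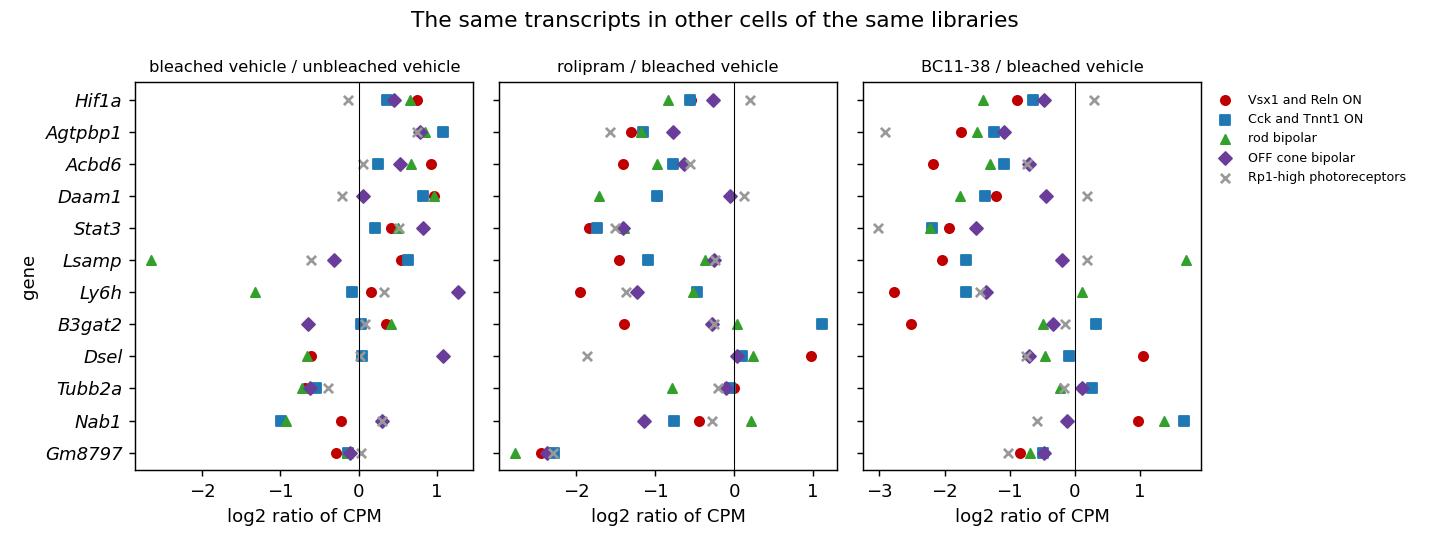
Log2 ratio of CPM of 12 named genes in 3 comparisons, in members (red circles) and in 4 other gates of the same libraries; the vertical line marks no difference. Agtpbp1 and Stat3 lie on one side in all 5 gates of the drug panels, while B3gat2, Lsamp and Dsel lie on both sides in at least 1 drug panel.

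Some named and listed genes stood higher with the drugs. Dsel, an epimerase-like enzyme of dermatan sulfate, led for BC11-38 and stood at 138 CPM, 90.9 CPM, 178 CPM and 188 CPM, with ratios of 1.96 (1.51 to 2.56) and 2.07 (1.59 to 2.71). It stood at 37.8 CPM to 43.0 CPM in the Cck and Tnnt1 gate of the 4 libraries, where no library stood apart. Hlf, a PAR leucine zipper factor under clock control, stood at 550.1 CPM, 418 CPM, 646 CPM and 659 CPM, and Per3, a clock gene, at 155 CPM, 121 CPM, 189 CPM and 182 CPM. Both were the genes past 1.5-fold among 12 counted of 19 clock genes, in each drug comparison, and the list medians were 0.03 and 0.21. Bleached vehicle was the lowest library for Dsel, Hlf and Per3. These calls lay near the fold. The log2 ratio of Hlf for rolipram was 0.39 in Y-positive members, 0.53 without members holding other markers and 0.57 with TMM scaling, in place of 0.63. For BC11-38 it was 0.582 in Y-positive members, 0.55 without those members and 0.50 without members with Cck, in place of 0.66. Per3 for BC11-38 took 0.26 in Y-positive members in place of 0.59. Hlf also stood higher outside the bipolar gates, at 189.9 CPM in bleached vehicle, 404 CPM in rolipram and 461 CPM in BC11-38.

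Other named genes stood high in 1 drug library. Nab1, a repressor of EGR factors, stood at 116 CPM, 99.3 CPM, 73.3 CPM and 196 CPM, so BC11-38 was the highest library at 1.97 times bleached vehicle (1.53 to 2.56). Cabp2, a calcium-binding protein of bipolar cells, stood at 252 CPM, 182 CPM, 237 CPM and 324 CPM, 1.78 times (1.47 to 2.16). Srsf3, a splicing factor, stood at 469.8 CPM, 348 CPM, 371 CPM and 588 CPM. In rolipram, Rnf150, a ubiquitin ligase, stood at 227 CPM against 126 CPM in bleached vehicle, and Evl, an actin regulator, at 147 CPM against 78.7 CPM. The difference between the drugs was not tested.

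Some named genes differed outside the bipolar gates of the rolipram library as well. Stat3 stood there at 161 CPM in bleached vehicle and 74.9 CPM in rolipram, Gm4792, a gene model, at 13.1 CPM and 30.2 CPM, and AC149090.1 at 282 CPM and 586 CPM. Gm8797, another gene model of the annotation, stood at 444 CPM, 365 CPM, 67.2 CPM and 204 CPM in members, and at 389 CPM, 287 CPM, 64.5 CPM and 214 CPM outside the bipolar gates. Whether this gene model shares reads with near-identical copies, and how such reads were assigned, was not stated in what was used here, so its value is uncertain.

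Some listed transcription factors stood lower with the drugs. Neurod4, a proneural factor, stood at 564 CPM, 784 CPM, 433 CPM and 556 CPM, and Prdm8 at 278 CPM, 367 CPM, 239 CPM and 219.7 CPM. The log2 ratio of Prdm8 for BC11-38 was -0.43 in place of -0.74 in Y-positive members, and for rolipram -0.52 in place of -0.62 without members holding markers of other types. Of 24 listed factors 11 were counted, 3 lower for rolipram and 2 for BC11-38, and 1 higher for each, which was Vsx1, a gene of the rule.

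Few ON cascade genes passed the fold with the drugs. For rolipram, 12 of its 13 genes were counted and 1 was higher, Rgs9bp, an anchor of RGS proteins, at 67.2 CPM against 42.2 CPM. Without members holding at least 2 markers of other cell types the log2 ratio of Rgs9bp was 0.56 in place of 0.66, under the fold counted. For BC11-38, 11 were counted and 1 was lower, Gnb3, by a ratio of 0.632 (0.596 to 0.670). List medians were -0.05 and -0.11. Grm6 stood at 1.09 times bleached vehicle in rolipram (0.975 to 1.22) and 0.733 times in BC11-38 (0.645 to 0.832).

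Among receptors and channels, Gria1 was lower with each drug, with bleached vehicle 2.19 times rolipram (1.63 to 2.98) and 2.19 times BC11-38 (1.62 to 3.0). Grm5, a metabotropic glutamate receptor, stood at 249.8 CPM, 235 CPM, 376 CPM and 316 CPM, higher in rolipram by 1.60 (1.35 to 1.90). Without members holding at least 2 markers of other cell types its log2 ratio was 0.54 in place of 0.68, under the fold counted. Of 33 ion channel genes 10 were counted in each drug comparison. For rolipram 1 was higher and 2 lower, and for BC11-38 0 were higher and 1 lower. Kcnb2, a delayed rectifier potassium channel, stood at 269 CPM, 253 CPM, 397 CPM and 331 CPM. Kcnd3 was lower in rolipram, with a log2 ratio of -0.62, or -0.38 in Y-positive members, under the fold counted. Kcng4 was lower there too, at -0.61, or -0.55 in Y-positive members. The 8 counted GABA and glycine receptor genes again held none past 1.5-fold in either comparison.

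Few of the counted cyclic AMP genes passed the fold. Of 19 phosphodiesterase genes 5 were counted, with none past 1.5-fold for rolipram and 1 for BC11-38, Pde10a, at 81.5 CPM, 64.7 CPM, 65.9 CPM and 112 CPM. Pde4a and Pde4d, of the family that rolipram inhibits, were under the 100 UMIs needed and were not counted. By the levels given above, Pde4a was lowest in bleached vehicle and stood higher in rolipram, so these counts do not describe it. Pde10a stood high in BC11-38 in rod bipolar and OFF cells too, at 125 CPM and 148 CPM against 30.5 CPM and 86.4 CPM. Of 19 cyclase and protein kinase A genes 8 were counted for rolipram, and Crtc1, a coactivator of CREB, was higher at 76.9 CPM against 41.2 CPM. Crem, a cyclic AMP responsive repressor, stood at 64.7 CPM, 58.1 CPM, 15.9 CPM and 32.7 CPM, and was under the 100 UMIs needed in the drug comparisons.

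Of the 7 counted immediate early genes, 2 were lower for rolipram and 3 for BC11-38. Jun, an AP-1 subunit, stood at 157 CPM, 131 CPM, 74.5 CPM and 73.2 CPM. Egr1, a zinc finger factor, stood at 84.1 CPM, 82.5 CPM, 90.4 CPM and 43.1 CPM, so BC11-38 was the one low library, with a log2 ratio of -0.43 in Y-positive members in place of -0.93. Fos stood at 506 CPM in rolipram and 358 CPM in BC11-38 against 432 CPM in bleached vehicle.

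Median log2 ratios of the metabolic lists lay under the fold counted. The 13 mitochondrially encoded genes had a median log2 ratio of -0.21 after bleaching, -0.08 for rolipram and 0.43 for BC11-38, where 2 were higher. One of these was mt-Atp8, a subunit of ATP synthase, at 254 CPM, 158 CPM, 197 CPM and 326 CPM. The other, mt-Nd6, took a log2 ratio of 0.52 in Y-positive members in place of 0.75. The share of mitochondrial UMIs in members, a sign of cell quality, had medians of 6.21%, 5.50%, 5.30% and 7.06%. The median of counted glycolysis genes was 0.04 after bleaching, -0.34 for rolipram and -0.25 for BC11-38. Pgk1, a glycolytic kinase, stood at 691 CPM, 697 CPM, 479 CPM and 531 CPM. All 75 nuclear oxidative phosphorylation genes were counted, with medians of 0.10, -0.13 and -0.09, and of 79 counted cytosolic ribosomal protein genes at most 1 passed the fold in any comparison.

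**Figure D5:**
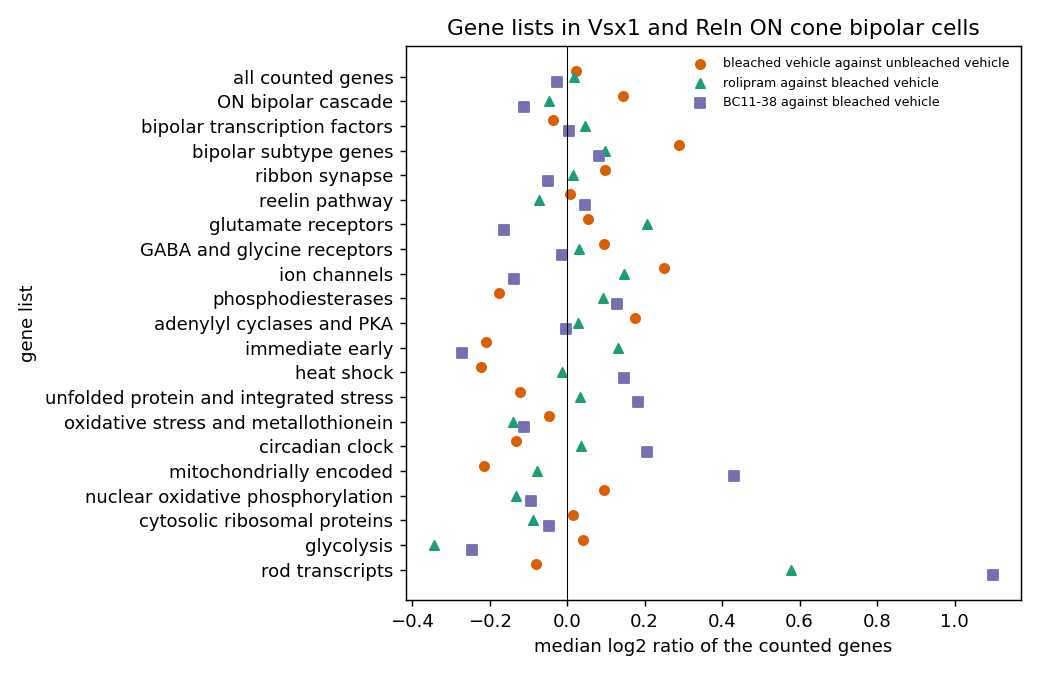
Median log2 ratio of the counted genes of each list in members, for the 3 comparisons; the vertical line marks no difference and the first row gives all counted genes. Lists with at least 5 counted genes are shown; rod transcripts stand at 0.58 for rolipram and 1.10 for BC11-38, and glycolysis genes at -0.34 and -0.25.

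Rod transcripts were also counted in the members, and their part in the other results was not tested. Of 19 rod transcripts, 7 of 15 counted were higher for rolipram and 13 of 16 for BC11-38, with medians of 0.58 and 1.10. In Y-positive members the list's median was 0.32 for rolipram and 0.29 for BC11-38, over 11 counted genes in each. Without the deepest 10% of members it was 0.86 and 1.51. Without members holding at least 2 markers of other cell types it was 0.41 and 1.17. Summed over the list, members held 2810 CPM, 2765 CPM, 4070 CPM and 5037 CPM, and the cells outside the bipolar gates 15024 CPM, 9719.6 CPM, 18176 CPM and 20424 CPM.

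Markers of other cell types were summed in members. The 6 rod markers gave 836 CPM, 867 CPM, 1599.6 CPM and 1897 CPM, against 4123 CPM to 7849.6 CPM outside the bipolar gates. The 7 markers of other ON cone bipolar types, Cck and Kcng4 among them, gave 131 CPM, 277 CPM, 169 CPM and 292 CPM, against 128 CPM to 139.7 CPM outside. The 9 amacrine markers summed to 133 CPM, 34.7 CPM, 39.1 CPM and 71.9 CPM, the 6 cone markers to 28.5 CPM, 72.2 CPM, 64.7 CPM and 128 CPM, and the 7 microglia markers to 7.85 CPM to 18.3 CPM. The 6 ganglion markers summed to 388 CPM in unbleached vehicle and to 1.87 CPM to 11.8 CPM in the others, with the single cell that held Sncg the main source. The 5 rod bipolar markers summed to 32.4 CPM to 52.3 CPM, and the 6 OFF markers to 10.5 CPM to 54.9 CPM.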

How the data were processed

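Single cells of 4 retinal libraries, 1 per group, were measured by droplet RNA-seq. Cell Ranger 6.0.1, Seurat 3.2.2 and mm10 are named without roles, per the submitters' processing notes. The deposited values were a natural log, taken of 1 plus the UMIs scaled to 10000 in each cell, as read from the values. The authors' cell and gene filters, and the treatment of strand, introns and shared reads, were not stated in what was used here. UMIs were recovered from the values of each cell, and 140410160 were found, with every value within 0.002 of a whole number. They were summed over members of each library and given as CPM. Log2 ratios used a prior of 0.5 UMIs and bounds a limit of 3 counts.

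Intervals are exact 95% Poisson, conditional Poisson or Clopper-Pearson intervals. With 1 library per group no test was run. Members and gene lists were chosen with earlier results of these data known. Comparison gates were Cck, Tnnt1 and Gng13 above 0 with fewer than 3 rod bipolar genes, at least 4 of 6 rod bipolar genes, Grik1 and Gsg1 above 0 with fewer than 3 rod bipolar genes, and Rp1 at 15 or more without Arr3.

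Named genes were the 10 higher and 10 lower per comparison whose counting interval lay farthest from 1, without Xist, Tsix, Y-linked, mitochondrially encoded and rule genes and genes higher outside the bipolar gates in the library where they were higher. Leading genes against the other bipolar gates were 15 higher and 10 lower by the smallest ratio within a library. Listed genes were named as examples of their list, Clu as an example of the Müller glia markers. No doublet caller was run; alternatives left out the deepest members and those with markers of other types. Python 3.11.15, numpy 2.4.6, scipy 1.17.1 and pandas 2.3.3 were used, and gene positions came from the GENCODE annotation of mm10. The scripts were tested on simulated data. One more group named in the series' design was not analysed here. A few genes are not reported here.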

Additional observations from a re-analysis of the deposited data

How the results depend on the processing

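No paired analysis was possible because each group had 1 library, and for the same reason no library could be left out. As a share of bipolar cells in place of all cells, members made up 11.03% without bleaching, 10.8% in bleached vehicle, 10.3% with rolipram and 10.5% with BC11-38. With cells thinned to 2000 UMIs the rolipram share of all cells was 2.37%.

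The counts of higher and lower genes moved with the thresholds. From at least 50 UMIs they were 326 and 227 for bleached against unbleached vehicle, 316 and 313 for rolipram, and 236 and 420 for BC11-38. From at least 200 UMIs they were 29 and 27, 36 and 51, and 37 and 56. At 2-fold they were 11 and 9, 11 and 30, and 21 and 32. Without members holding at least 2 amacrine, ganglion, horizontal or cone markers, 50 genes were lower after bleaching in place of 78, over fewer genes counted.

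Of 1056 recomputed ratios of named and listed genes, 997 lay within the counting interval of the reported value, 53 lay outside it and 6 changed sign. In 88 of them a ratio past 1.5-fold came to lie under it, 36 of these in members with Y-linked UMIs but none of Xist. The settings differed. Those Y-linked members gave 132 ratios, of which 101 lay within the interval, 28 lay outside it and 3 changed sign. TMM scaling and at least 2 UMIs of Gng13 gave 132 ratios each, all within it. Sncg after bleaching took log2 ratios of 1.24 in members with Y-linked and no Xist UMIs, 1.44 without Grik1 or Gsg1, 1.43 without the deepest 10% and 1.43 without Cck, a setting chosen after the data were seen. In the members with Y-linked and no Xist UMIs, Guca1b and Prph2 for BC11-38 took -0.0090 and -0.22. The cause of these changes was not tested. Of 670 recomputed medians of lists with at least 5 counted genes, 661 moved by less than their genes' typical counting error and 9 by more, and no median past the fold changed sign. Scaling by TMM shifted the 3 comparisons by 0.03, 0.06 and -0.04. With 86 to 154 members per library, genes under 100 UMIs over both libraries were left out of the counts.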
